A study of Mus musculus with 2 samples.

Results

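The genes described here are the reelin pathway and its Cdk5 and Lis1 neighbours, 10 named genes of the 55536 annotated in the tables. They were taken from a list of names, drawn up with earlier results of these data known, and no measured value enters the rule. They are the ligand Reln, the receptors Vldlr and Lrp8, the adaptor Dab1, the kinase Cdk5 with its activators Cdk5r1 and Cdk5r2, and Pafah1b1 (Lis1) with its partners Nde1 and Ndel1. All 10 were found by symbol and were detected, at 1 TPM or more (transcript abundance per length, on a scale with the same total in every library), in both libraries. The mice were males of the hybrid B6CASTF1/J, from a cross of C57BL/6J and CAST/EiJ, aged 10 days, with no treatment named, and the tissue was the left cerebral cortex. The design has 1 group of 2 libraries (replicates 1 and 2), each from 300 ng of total RNA with ERCC spike-in RNAs added. The biosample labels carry different animal numbers and a shared donor identifier. They were read as separate animals, and the SD over the libraries (n = 2) measures the spread of these samples alone. With 1 group there is no control and no test, and no p-value is given.

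Reelin is a large secreted glycoprotein. It binds the receptors Vldlr and Lrp8 (ApoER2) on neurons, and the bound receptors bring about tyrosine phosphorylation of the adaptor Dab1 by Src-family kinases. In the embryo this pathway places migrating cortical neurons in their layers. After birth it acts on dendrites and synapses, and reelin then comes more and more from GABAergic interneurons, while the Cajal-Retzius cells that made it in the embryo are lost. Cdk5 is a kinase that is active only when bound to p35 or p39, the products of Cdk5r1 and Cdk5r2. Lis1 is a regulator of the dynein motor that works with Nde1 and Ndel1 in nuclear movement, and Ndel1 is also a Cdk5 substrate.

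The sequences that vary between transcripts of these genes are given first, because the receptor and kinase results turn on them. Each is an internal coding exon that some annotated protein-coding transcripts of the gene skip. Inclusion by coding TPM, below, covers only coding transcripts that include the exon or skip it between the same flanking exons. It is printed 5′ to 3′ on the coding strand in capitals, with 15 bases of each neighbouring exon in lower case, from the GENCODE M21 transcript models on mm10. The exon lengths are all multiples of 3, so skipping keeps the reading frame. In order, they lie at chr5:21891562-21891567 (minus strand), chr19:27236240-27236362 and chr19:27246593-27246676 (plus strand), chr4:107848281-107848403, chr4:107861133-107861357 and chr4:107870012-107870188 (plus strand), and chr5:24420955-24421050 (minus strand).
Reln 6-base exon: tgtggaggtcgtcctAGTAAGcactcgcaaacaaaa
Vldlr 123-base exon: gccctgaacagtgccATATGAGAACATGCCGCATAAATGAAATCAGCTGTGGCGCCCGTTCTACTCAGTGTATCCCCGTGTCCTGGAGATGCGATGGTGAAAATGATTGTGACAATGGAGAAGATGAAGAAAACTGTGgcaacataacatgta
Vldlr 84-base exon: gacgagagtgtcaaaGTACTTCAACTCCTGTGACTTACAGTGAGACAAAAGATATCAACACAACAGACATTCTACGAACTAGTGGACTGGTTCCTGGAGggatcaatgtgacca
Lrp8 123-base exon: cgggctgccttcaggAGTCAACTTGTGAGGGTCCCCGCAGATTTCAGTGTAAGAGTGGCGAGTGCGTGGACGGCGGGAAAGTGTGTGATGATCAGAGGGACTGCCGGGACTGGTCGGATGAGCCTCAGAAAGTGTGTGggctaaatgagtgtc
Lrp8 225-base exon: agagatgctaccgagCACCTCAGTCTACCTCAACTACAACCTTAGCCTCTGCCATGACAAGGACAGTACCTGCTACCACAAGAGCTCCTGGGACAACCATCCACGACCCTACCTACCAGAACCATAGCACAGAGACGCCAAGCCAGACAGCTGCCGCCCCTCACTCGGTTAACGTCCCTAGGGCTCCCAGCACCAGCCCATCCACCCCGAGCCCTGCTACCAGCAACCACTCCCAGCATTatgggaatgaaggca
Lrp8 177-base exon: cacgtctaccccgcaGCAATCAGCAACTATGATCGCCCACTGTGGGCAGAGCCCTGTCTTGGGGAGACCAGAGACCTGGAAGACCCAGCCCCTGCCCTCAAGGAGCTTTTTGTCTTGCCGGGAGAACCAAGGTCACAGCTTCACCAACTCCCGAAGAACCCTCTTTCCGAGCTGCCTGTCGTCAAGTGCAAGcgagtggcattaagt
Cdk5 96-base exon: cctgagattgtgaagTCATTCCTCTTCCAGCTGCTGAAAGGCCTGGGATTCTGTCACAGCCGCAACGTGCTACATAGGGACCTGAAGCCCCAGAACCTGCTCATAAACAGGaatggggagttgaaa

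The libraries held 31254528 and 30218308 expected counts, and 13124 of 22028 protein-coding genes passed the detection level, at a median of 16.4 TPM. Each library was quantified by the authors in 2 ways. Levels are from the first, made from alignments, unless the second, made from the reads and an index, is named. The second gave higher TPM in general, with a median of 1.53 times the first over detected protein-coding genes, so levels are compared within a quantification. The libraries also differed in the RNA of markers of some cell types. All 6 markers of striatal neurons were lower in replicate 2 by over 1.2-fold in scaled counts (summed level 149 TPM in replicate 1 and 104 in replicate 2), as were 4 of 5 markers of myelinating oligodendrocytes. The summed choroid plexus markers went from 9.09 to 313 TPM, nearly all of it Ttr. Their part in the values below was not tested. Glutamatergic neuron markers of the cortex were all detected, 6 of 6, and summed to 1153 and 1142 TPM.

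The 10 genes spanned a wide range of levels, and both Cdk5 activators and Lis1 stood at the top. By mean TPM the order was Cdk5r2, Pafah1b1, Cdk5r1, Lrp8, Cdk5, Reln, Dab1, Ndel1, Vldlr and Nde1. The ranges of the 2 libraries overlapped for the neighbours Cdk5r2 and Pafah1b1 and for Cdk5 and Reln, so their order is not resolved. Lrp8 and Cdk5 did not overlap, but the authors' intervals around each estimate did in both libraries. All other neighbours were apart by range and by interval in the first quantification. The second turned the order of means around Dab1, which at 104 TPM stood above Reln at 103 and Cdk5 at 93.9. The median of the 10 genes was 70.1 TPM, above the 16.4 TPM of all detected protein-coding genes. Nde1 alone lay under that median, higher than only 31.1% of the detected genes, while Vldlr, the next in order, was higher than 74.6%.

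**Figure D1:**
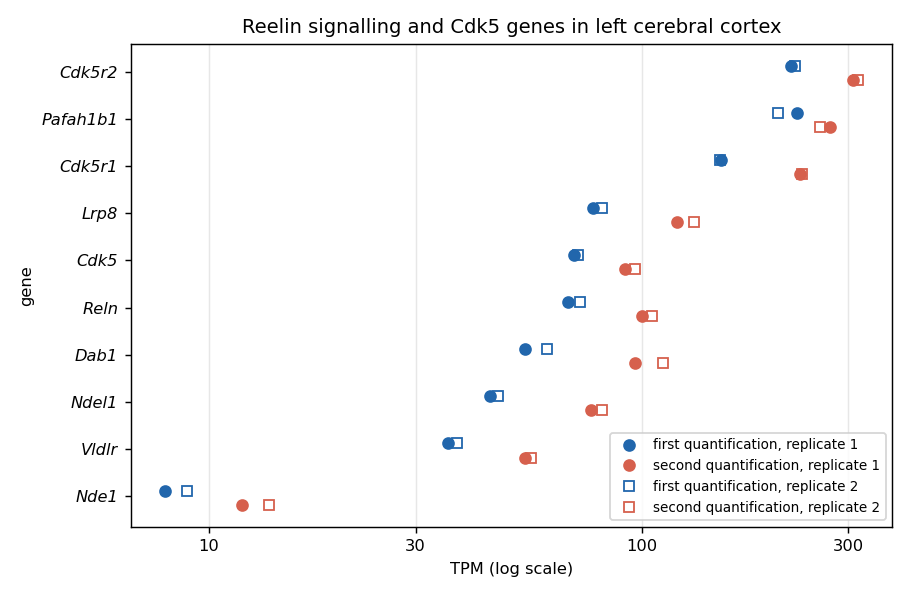
Level of each of the 10 genes in TPM (log axis), with circles for replicate 1 and squares for replicate 2, in blue for the first and red for the second quantification. Cdk5r2, Pafah1b1 and Cdk5r1 lie above 150 TPM in the first quantification in both libraries, and Nde1 lies below 10 TPM.

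Reln (ENSMUSG00000042453.14, chr5:21884454-22344702, minus strand), the ligand, stood at 67.5 TPM in replicate 1 and 71.8 in replicate 2, a mean of 69.6 ± 3.01 (SD, n = 2). The libraries were close, and the level was higher than that of 87.9% of the detected protein-coding genes. In bulk tissue, fewer cells of a type and less RNA per cell cannot be told apart. Of the 8 Cajal-Retzius markers, 2 were detected, Calb2 at 33.0 and 34.7 TPM and Cxcr4 at 3.35 and 2.65. Calb2 is also made by interneurons. The defining Cajal-Retzius gene Trp73 was at 0.73 and 0.84 TPM, and Lhx1, Lhx5, Ebf2, Ebf3 and Nhlh2 were all under 1 TPM. All 10 GABAergic interneuron markers were detected, with a sum of 483 TPM in replicate 1 and 468 in replicate 2. Which of these cells carried the Reln transcripts was not tested.

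Most Reln signal lay on the full-length model. Reln-207, with 65 exons and 3461 codons, held 72.7 ± 0.034% of the TPM of the gene and 94.9% of its expected counts. The difference between these shares goes with length: the short noncoding models of the locus take few reads but count heavily per length. The other long coding model, Reln-201, is shorter at its ends and lacks the 6-base exon printed above, which starts at codon 3429 near the end of the protein and adds 2 codons. Reln-201 was at 0.52 TPM in replicate 1 and 0.61 in replicate 2, against 49.1 and 52.2 for Reln-207. Inclusion of the 6 bases, taken from these 2 models, was 98.9 ± 0.077%. In the second quantification it was 95.1% in replicate 1 and 90.7% in replicate 2. Because the models differ at their ends too, reads away from the exon can set this share, and their part was not tested.

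Of the reelin receptors, Lrp8 was the more abundant. Lrp8 (ENSMUSG00000028613.14, chr4:107802261-107876840, plus strand) stood at 76.9 and 81.0 TPM, a mean of 79.0 ± 2.86. Vldlr (ENSMUSG00000024924.14, chr19:27216484-27254231, plus strand) stood at 35.7 and 37.4 TPM, a mean of 36.6 ± 1.202. The groups of values did not overlap, and Lrp8 exceeded Vldlr by the same factor in both libraries. The ratio was 2.15 in replicate 1 and 2.16 in replicate 2 (mean 2.16 ± 0.0073). It was 1.63 when only protein-coding transcripts were counted, since these held 59.2% of the Lrp8 TPM and 78.8% of the Vldlr TPM.

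Vldlr varied at 2 places with a known role. The 84-base exon encodes the serine- and threonine-rich stretch outside the membrane that carries O-linked sugars, and 11 of its 28 codons are for serine or threonine. It was included in 66.4% of coding TPM in replicate 1 and 69.0% in replicate 2 (mean 67.7 ± 1.82%), and Vldlr-207, the top transcript with 873 codons, carries it. The libraries were close to each other, and the second quantification gave 60.3% and 54.8%. Over all transcripts that reach past the exon, coding or not, the means were 52.7% and 49.8%. Both forms were thus given signal under every way of counting. All of these sum whole transcripts, and Vldlr-207 ends at 27254231, while the models that skip the exon end at 27249862 or before. Reads from that last stretch raise the inclusion share without covering the exon, and their part was not tested. The 123-base exon encodes 41 codons with 6 cysteines, an LDL-receptor class A repeat of the ligand-binding region. It was included in 83.0% and 85.3% (mean 84.1 ± 1.59%), against 78.7% and 82.1% in the second quantification. Vldlr-207 includes this exon too, and the coding model that skips it, Vldlr-202, ends at 27249727, so the same limit holds. A 126-base exon, also with 6 cysteine codons, was included in 94.8 ± 0.25% by the first quantification and 100% by the second. The model that skips it, Vldlr-206, is incomplete in the annotation.

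Lrp8 has the same kind of sugar-bearing exon, and here most coding TPM included it in both quantifications. Of the 75 codons of its 225-base exon, 29 are for serine or threonine and 11 for proline. It was included in 100% of coding TPM in both libraries by the first quantification, and in 92.7% and 87.0% by the second. The model that skips it, Lrp8-206, was at 0 in both libraries by the first quantification and at 3.90 and 7.51 TPM by the second. Lrp8-206 ends at 107872816, and Lrp8-202, which includes the exon, at 107876840. Reads from that last stretch raise the inclusion share without covering the exon, and their part was not tested. The matching Vldlr exon was included in 67.7% by the first quantification and 57.5% by the second, as means of the libraries.

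The 177-base exon of Lrp8 encodes the proline-rich insert of the cytoplasmic tail, 59 codons with 9 for proline, which binds scaffold proteins and is known for its part in synaptic plasticity. By coding transcripts, it was included in 23.6% in replicate 1 and 30.4% in replicate 2 of the first quantification (mean 27.0 ± 4.80%). The second quantification gave 2.44% and 1.76%. These values are far apart. The coding models that carry the exon are Lrp8-201, which was low in both, and Lrp8-203. Lrp8-203 was at 10.3 and 12.8 TPM in the first quantification, and at 0.099 TPM or less in the second. Lrp8-209, classed in the annotation as a nonsense-mediated decay transcript, has 996 codons and carries the 381-, 123-, 225- and 177-base exons. It was at 15.8 and 12.9 TPM in the first quantification and at 35.6 and 36.4 in the second. When all transcripts that reach past the exon were counted, a choice made after the values were seen, inclusion was 44.1 ± 0.78% by the first quantification and 40.5 ± 1.17% by the second. By these transcript levels the exon was both included and skipped in both libraries. Which annotated transcript carried it depended on the quantification. Most of the skipping signal lay on Lrp8-202, at 33.7 and 34.5 TPM in the first quantification. That model ends at 107876840, and the others at 107874167 or before. Reads from its last stretch lower the inclusion share without covering the exon, and their part was not tested.

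The ligand-binding exons of Lrp8 also depended on which transcripts were counted. The 123-base exon, again 41 codons with 6 cysteines, was included in 24.6 ± 1.73% of coding TPM by the first quantification and in 0.086 ± 0.121% by the second. Over all transcripts that reach past it the values were 45.7 ± 2.08% and 51.6 ± 1.45%. A 381-base exon, 127 codons with 18 cysteines (several class A repeats in a row), was included in 0.27% of coding TPM in replicate 1 and 6.13% in replicate 2. The coding model Lrp8-203 also skips this exon, but its flanking exons differ, so this share leaves it out. The values of the 381-base exon in the second quantification were 2.44% and 1.59%, so the order of the libraries was not the same there. Over all transcripts it was 24.0 ± 1.26% by the first and 32.2 ± 0.46% by the second. By every count made here the 381-base exon was skipped more often than included. All of these counts sum whole transcripts, and Lrp8-202, which skips the 381- and 123-base exons, ends at 107876840. The other Lrp8 models end at 107874167 or before. Reads from that last stretch raise the share of skipping without covering either exon, and their part was not tested.

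**Figure D2:**
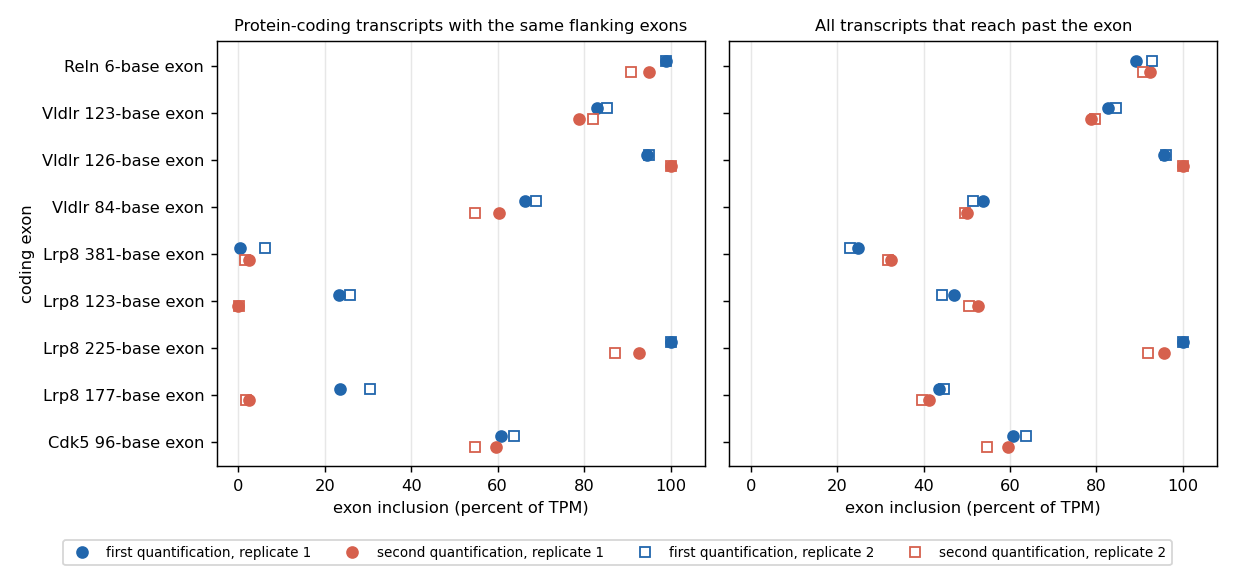
Inclusion of 9 coding exons as a percent of TPM, with circles for replicate 1 and squares for replicate 2, blue for the first and red for the second quantification, over coding transcripts with the same flanking exons (left) and over all transcripts that reach past the exon (right). For the 177-base exon of Lrp8 the quantifications are apart at left (27.0% and 2.10% on average) and close at right (44.1% and 40.5%).

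The top transcript of Lrp8 was Lrp8-202 in both quantifications, at 43.8% of the TPM of the gene in replicate 1 and 42.6% in replicate 2. Its model is 6627 bases long, is incomplete in the annotation, and encodes 698 codons without the 381-, 123- and 177-base exons. The second quantification gave it 38.7 ± 1.66%. It held 70.4% of the expected counts of the gene and 73.0% of the TPM of its coding transcripts. Lrp8-201, the complete model with 955 codons that holds both the 381-base and the 177-base exon, stayed at 0.09 and 2.25 TPM. Lrp8os2, on the opposite strand, was given 38 and 28 expected counts, against 6369 and 6350 for Lrp8. The strand setting of the counting is not known, so reads where these genes overlap may not be told apart.

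Dab1 (ENSMUSG00000028519.16, chr4:103619359-104744844, plus strand), the adaptor that reads out receptor binding, stood at 53.6 TPM in replicate 1 and 60.4 in replicate 2, a mean of 57.0 ± 4.81. In the first quantification it was lower than Reln and Lrp8 and higher than Vldlr in both libraries. In the second, Dab1 was at 96.6 TPM in replicate 1 and 112 in replicate 2, and Reln at 100.2 and 106, so these ranges overlapped. Its top transcript was Dab1-203, which has 15 exons and encodes the 555-residue protein. Dab1-203 held 49.2% of the TPM of the gene in replicate 1 and 47.0% in replicate 2 (mean 48.1 ± 1.54%), and 38.3 ± 1.99% in the second quantification. By expected counts it held 81.6%. The model is 5278 bases long and the other Dab1 models are shorter, so the share per length and the share of reads differ.

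Much of the rest of Dab1 lay on 3 coding models that end early, Dab1-201, Dab1-202 and Dab1-206, with 197, 204 and 160 codons. The annotation marks Dab1-202 and Dab1-206 as incomplete. Together they held 36.3% of Dab1 TPM in replicate 1 and 38.3% in replicate 2, and 38.3 ± 1.29% in the second quantification. Those shares were close, but the same models held 12.9 ± 0.78% of the expected counts. The quantifications split them differently: Dab1-202 had 24.5% in the first and 16.0% in the second, and Dab1-206 had 6.63% and 15.8%. The noncoding Dab1-205 held 11.4% and 14.7%.

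**Figure D3:**
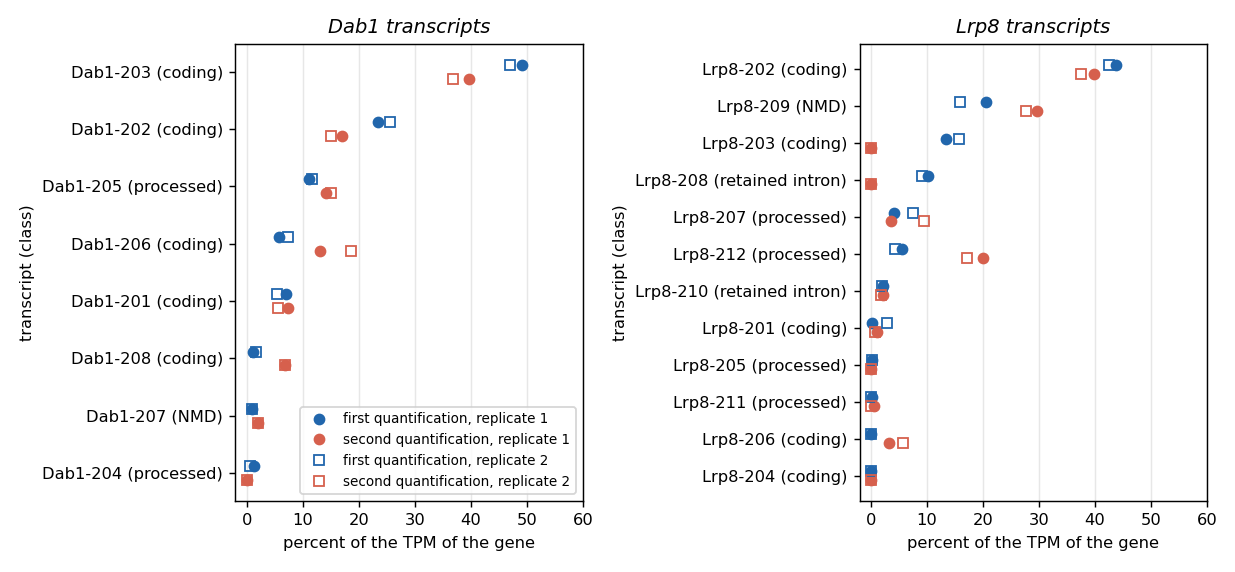
Percent of the TPM of Dab1 (left) and Lrp8 (right) held by each annotated transcript, with circles for replicate 1 and squares for replicate 2, blue for the first and red for the second quantification, and the annotation class in brackets (NMD, nonsense-mediated decay). Dab1-203 and Lrp8-202 lead in all 4 sets of values, and Lrp8-203 is above 10% in the first quantification and near 0 in the second.

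Cdk5 (ENSMUSG00000028969.10, chr5:24418241-24423530, minus strand), the kinase, stood at 69.7 and 71.2 TPM, a mean of 70.5 ± 1.05. Its activators were each more abundant. Cdk5r1 (ENSMUSG00000048895.13, chr11:80477023-80481184, plus strand), which encodes p35, stood at 153 and 152 TPM (mean 152 ± 0.77). Cdk5r2 (ENSMUSG00000090071.4, chr1:74854934-74857732, plus strand), which encodes p39, stood at 221 and 226 TPM (mean 223 ± 3.12). Cdk5r2 had the highest mean of the 10 genes, above 97.7% of detected protein-coding genes, but Pafah1b1 was higher in replicate 1.

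Within each library, the activators were compared with the kinase and with each other. The sum of both activators was 5.36 times the Cdk5 level in replicate 1 and 5.30 times in replicate 2 (mean 5.33 ± 0.046). The ratio of Cdk5r1 to Cdk5r2 was 0.69 in replicate 1 and 0.67 in replicate 2 (mean 0.681 ± 0.013), so p35 transcripts were fewer than p39 transcripts in both. The second quantification gave 5.80 for the first ratio and 0.748 for the second. The main models of both activator genes have no introns, and Cdk5r2 has a single annotated transcript, so its value does not rest on a split between isoforms. These are transcript levels, and they do not give the amounts of the proteins.

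Cdk5 itself had 2 coding transcripts. The 96-base exon printed above, 32 codons from codon 105 on, lies in the kinase domain. Cdk5-201, with 292 codons, includes it, and Cdk5-203, with 260 codons, skips it. Cdk5-201 stood at 40.1 and 41.8 TPM and Cdk5-203 at 26.0 and 23.9. Inclusion was 60.7% in replicate 1 and 63.7% in replicate 2 (mean 62.2 ± 2.10%), and 59.5% and 54.7% in the second quantification. By expected counts it was 82.5%. The model of Cdk5-203 is 783 bases long, little more than its coding sequence, against 2059 bases for Cdk5-201, and the share per length weighs each of its reads more. Cdk5-201 runs from 24418241 to 24423530 and Cdk5-203 from 24419376 to 24423485. Because the models differ at their ends too, reads away from the exon can set this share, and their part was not tested.

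Pafah1b1 (ENSMUSG00000020745.15, chr11:74673949-74724670, minus strand), which encodes Lis1, stood at 228 TPM in replicate 1 and 206 in replicate 2, a mean of 217 ± 15.7. This was the widest SD among the 10 genes in TPM. Pafah1b1-201 held 68.8 ± 2.73% of it and Pafah1b1-202 held 16.0 ± 0.032%, and both encode the same number of codons, 410. The library difference was greatest on Pafah1b1-204, an incomplete model of 525 bases, at 36.8 TPM in replicate 1 and 24.2 in replicate 2. That model was at 0.026 TPM or less in the second quantification, where Pafah1b1 stood at 272 and 257 TPM.

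The Lis1 partners were far less abundant and unequal. Ndel1 (ENSMUSG00000018736.14, chr11:68821434-68871858, minus strand) stood at 44.6 and 46.6 TPM (mean 45.6 ± 1.41). Nde1 (ENSMUSG00000022678.16, chr16:14163275-14192928, plus strand) stood at 7.93 and 8.91 TPM (mean 8.42 ± 0.69). Nde1 is known from dividing progenitors, and 7 of 8 progenitor and dividing-cell markers were detected, with a sum of 36.2 TPM in replicate 1 and 42.5 in replicate 2. The 8 markers ran from Eomes, which was not detected, at 0.11 and 0.26 TPM to Hes5 at 15.5 and 22.1. Hes5 is also expressed by astrocytes, and Mki67 stood at 2.70 and 2.81. Whether the Nde1 level follows such cells was not tested. Ndel1 exceeded Nde1 by 5.62 times in replicate 1 and 5.23 times in replicate 2 (mean 5.42 ± 0.278). The top transcripts were Ndel1-201 with 82.8 ± 1.60% and Nde1-201 with 69.5 ± 5.20%. Nde1 rests on 307 and 324 expected counts and overlaps Marf1 on the opposite strand, which had 2872 and 2794. With the strand setting of the counting not given in the sources used here, reads of this pair may not be told apart.

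The levels of the 10 genes differed little between the libraries. A ratio was taken as replicate 2 over replicate 1 in CPM (expected counts scaled to the library total), with 95% Clopper-Pearson intervals. These cover counting error only, and with no molecular identifiers named in the labels, several reads may stem from 1 molecule. Of the 10 genes, 0 passed 1.2-fold in either direction, against 6.79% of the 12835 genes that averaged at least 100 expected counts. At that share, fewer than 1 gene in a list of 10 would pass, so the count says little about these genes. Their log2 ratios lay between -0.09 (Pafah1b1) and 0.13 (Nde1), within the 5th to 95th percentiles of all those genes, -0.18 to 0.26. Counting error alone did not cover the ratio of Dab1, at 1.09 (1.04 to 1.14), of Reln, at 1.06 (1.03 to 1.08), of Pafah1b1, at 0.941 (0.923 to 0.958), or of Cdk5r1, at 0.974 (0.949 to 0.999). The intervals of the other 6 genes included 1. The 12835 genes together also spread beyond counting error, with a chi-square per gene of 6.48, where counting error alone gives about 1. The share of all genes whose interval left out 1 was not computed, so these intervals do not set any of the 10 genes apart. The interval of Nde1 was the widest, from 0.931 to 1.28, and reached past 1.2.

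**Figure D4:**
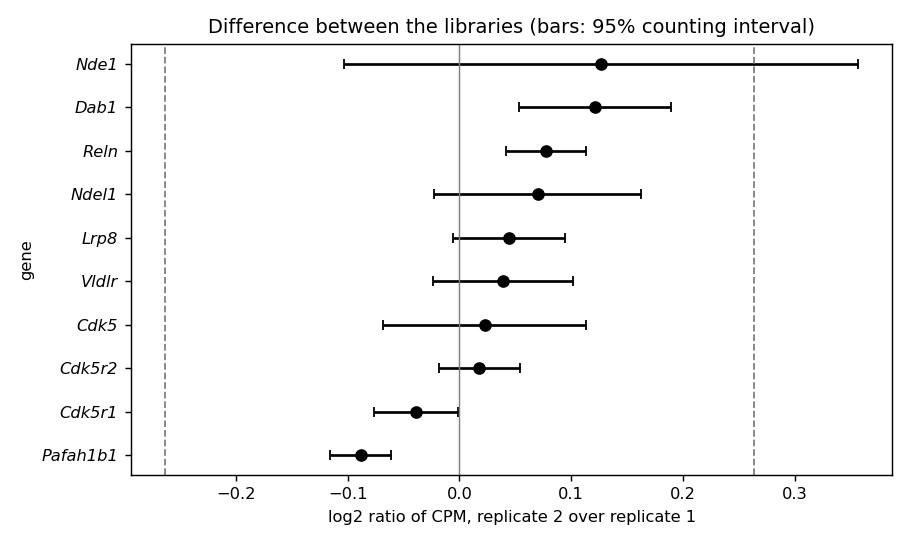
Log2 ratio of CPM, replicate 2 over replicate 1, for each of the 10 genes, with 95% counting intervals as bars and dashed lines at 1.2-fold. The points run from -0.09 for Pafah1b1 to 0.13 for Nde1, all between the dashed lines.

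The wider pathway was read from 8 lists with 79 further genes, of which 76 were detected. Their median was 53.9 TPM. Of the 76 that averaged at least 100 expected counts, 2 were past 1.2-fold higher in replicate 2 (background 4.74%) and 1 was lower (background 2.04%), in all 3.95% against 6.79% of all genes. Thbs1, a secreted ligand of both receptors, was at 3.14 TPM in replicate 1 and 4.39 in replicate 2, and its log2 CPM ratio was 0.37. Capn1, a calpain of the family that cuts p35 to p25, had a log2 ratio of 0.27, although its TPM was 8.51 in replicate 1 and 7.58 in replicate 2. Ppp1r1b (DARPP-32), a Cdk5 substrate abundant in striatal neurons, was at 58.7 TPM in replicate 1 and 38.9 in replicate 2, and its log2 CPM ratio was -0.63. The other 5 striatal markers were lower in replicate 2 too, and their part in this difference was not tested.

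Outside the cell, the proteases that cut reelin were modest. Adamts3, a main reelin-cleaving protease, stood at 24.1 and 22.5 TPM, the convertase Furin at 20.9 and 24.3, and Plat (tissue plasminogen activator) at 20.4 and 21.3. Adamts5 was at 0.84 and 1.0 TPM and was not called detected. Among other proteins that bind the receptors, Apoe, the main lipid carrier of the brain, stood at 642 and 700.2 TPM and Clu (clusterin) at 196 and 205, above Reln. Selenop, listed with them, was at 128 and 129 TPM, also above Reln. Thbs1, given above, was far below Reln, and Apob was at 0.06 and 0.10 TPM. The same list holds Lrp1, itself a receptor for Apoe, at 132 and 137 TPM. Among genes for receptor handling, the chaperones Lrpap1 (RAP) and Mesd had means of 55.8 and 30.6 TPM and the sorting nexin Snx17 had 34.2.

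Inside the cell, Fyn, the Src-family kinase best known for phosphorylating Dab1, stood at 87.8 and 86.3 TPM in the first quantification. Downstream, Gsk3b stood at 118 and 116 TPM and Cfl1 (cofilin, which severs actin) at 906 and 907. All 16 genes of that list were detected. Of the machinery that degrades phosphorylated Dab1, the adaptors Elob and Eloc had means of 189 and 90.4 TPM and Socs7 had 37.5. Among genes that bind or regulate Cdk5, Cdk16, a related kinase, had 140.9 TPM, Gstp1 113 and the calpain subunit Capns1 96.2.

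Cdk5 substrates formed the list with the highest median, 143 TPM in replicate 1 and 141 in replicate 2. The microtubule protein gene Map1b stood at 483 ± 9.04 TPM, Dpysl2 (CRMP2, which binds tubulin) at 437 ± 9.04 and the postsynaptic scaffold gene Dlg4 (PSD-95) at 413 ± 7.07. The Lis1 and dynein list had medians of 85.2 and 86.1 TPM. It was led by Ywhae (14-3-3 epsilon, which protects phosphorylated Ndel1) at 748 ± 13.0, the microtubule kinase Dclk1 at 444 ± 13.0 and the dynactin subunit Dctn1 at 168 ± 5.35.

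**Figure D5:**
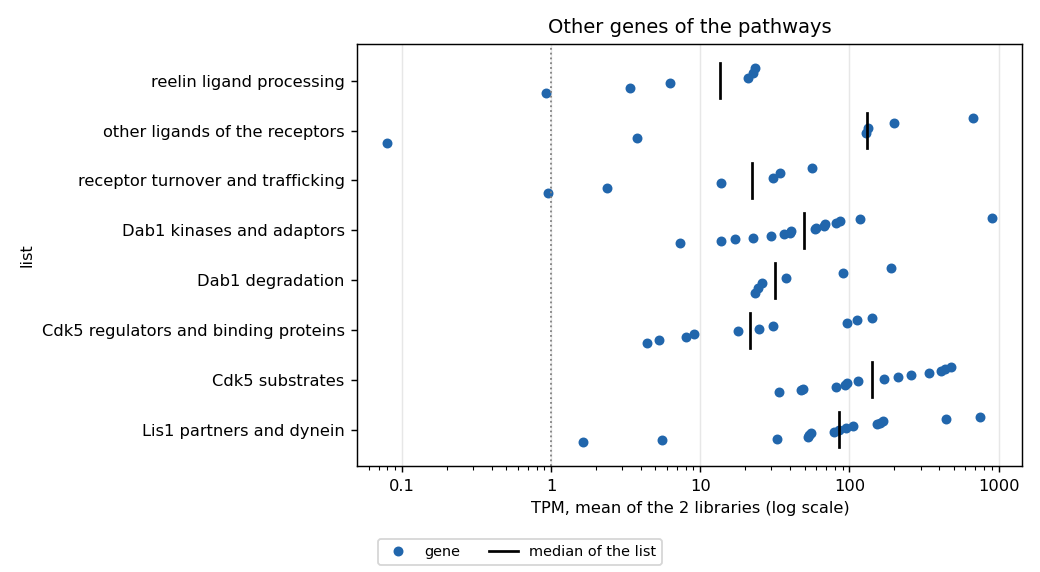
Mean level over the 2 libraries, in TPM on a log axis, of the 79 other pathway genes in 8 lists, with a point per gene, a bar at the median of each list and a dotted line at 1 TPM. The Cdk5 substrates have the highest median, and 3 genes lie left of the dotted line.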

How the data were processed

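The deposited tables were made on mm10 with GENCODE M21, per the deposited file descriptions. Programs, their versions and the strand handling were not given in the sources used here. Reads were set against the C57BL/6J genome, and alleles were not separated. The first quantification gives the authors' expected counts, TPM, the percent of each gene held by each transcript, and a posterior mean signal with interval bounds (their level not given in the sources used here), per the file headers. The second gives the authors' estimated counts and TPM per transcript, per the file headers, summed here by gene. The effective length was the length minus 99 bases in the first.

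Shares and exon inclusion were computed from transcript TPM with Python 3.11.15 and pandas 2.3.3. Ratios between libraries used CPM from expected counts, a minimum mean of 100 and scipy 1.17.1 for intervals. Their code was checked on simulated counts that held counting error alone. Those counts lack the wider spread of these libraries, so the check does not cover it. Alternatives used TMM factors of edgeR 4.0.16 and size factors of DESeq2 1.42.0. The libraries were not copies: their chi-square per gene was 6.48. The members and lists were chosen with earlier results of these data known. All 10 genes are named, with the 3 highest of each pathway list and those past 1.2-fold.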

Additional observations from a re-analysis of the deposited data

How the results depend on the processing

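All alternatives kept the order within each pair, and 0 of the 10 genes passed 1.2-fold under any of the 6 alternatives. The ratio of Lrp8 to Vldlr was 2.31 (second quantification), 2.14 (posterior mean), 1.63 (coding transcripts) and 1.55 (expected counts), and 2.15 to 2.16 by library. The ratio of Cdk5r1 to Cdk5r2 was 0.748 (second) and 0.942 (counts). Ndel1 to Nde1 was 6.16, 5.14 (posterior mean) and 5.997 (counts). The activators to Cdk5 gave 5.80, 5.70 (coding) and 11.9 (counts, which are not per length). Of the 12835 genes with enough counts, 871 (6.79%) were past 1.2-fold, and 1522 (11.9%) by TPM. With no count filter it was 8105 of 24377 genes (33.2%). Dab1-203 held 38.3% (second), 81.6% (counts) and 55.4% (coding), and Lrp8-202 held 38.7%, 70.4% and 73.0%. For exon inclusion, values are for the second quantification, for counts and, added after the data were seen, for all transcripts: Reln 92.9, 99.0 and 91.0%; Vldlr 126-base 100, 99.4 and 95.9%; Vldlr 84-base 57.5, 82.6 and 52.7%; Lrp8 123-base 0.086, 11.4 and 45.7%; Lrp8 177-base 2.10, 13.4 and 44.1%. Vldlr 123-base was 80.4 and 92.2% for the first pair, Cdk5 57.1 and 82.5%. Lrp8 225-base was 89.8% in the second, and Lrp8 381-base 24.0% over all transcripts. The 381-base value was 0.27 to 6.13% by library. Counts weigh transcripts by length. For other changes the cause was not tested. No paired analysis was possible because there is 1 group. Nde1, at 307 and 324 counts, is the gene that depth limits most.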

Other observations

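Among the 76 detected pathway genes, the second quantification gave 1.10 to 2.80 times the TPM of the first for 75, and 32.0 times for Cdk5rap2, which encodes a centrosomal protein that binds the Cdk5 activator p35. Cdk5rap2 had a mean of 4.42 TPM in the first and 141 in the second. The difference lay on Cdk5rap2-205, a coding model of 711 bases and 3 exons. It had 4.09 and 12.5 expected counts in the first quantification, and 716 and 867 estimated counts in the second. The long model Cdk5rap2-206 was similar in both, at 2.22 and 2.54 TPM in the first and 2.98 and 3.49 in the second. This gene was chosen after its values were seen, and the cause was not tested. Rap1a (36.6 and 102 TPM) and Clu (200.4 and 497 TPM) were the next in this order.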
